A study of Mus musculus with 8 samples.

Results

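Cholesterol and fatty acid synthesis genes were followed in mouse embryonic fibroblasts (MEFs) as c-Src was switched on for up to 72 h. The set was 33 genes, of 36161 gene names on the array, and was chosen by function: 7 enzymes of the mevalonate pathway, 11 of squalene and sterol synthesis, 5 genes of SREBP control, 3 of sterol transport and 7 of fatty acid synthesis. The cells of every group were Csk-/-, so they lack the kinase that restrains Src family kinases, and all carried the plasmid pBKT2-c-Src, from which c-Src is expressed on addition of 1 µg/ml doxycycline. The groups were cells after 0 h of c-Src expression, which served as the baseline, and after 6, 24 and 72 h, with 2 one-colour arrays of total RNA for each of the 4 times. The labels do not say whether the cells were 1 clone or a pool, or whether the 2 arrays of a time hold RNA of separate cultures. The spread behind each p-value is therefore that of duplicate arrays and may be technical. Length of c-Src expression went with length of doxycycline exposure and of culture and with the place of an array on the slide, and these cannot be told apart.

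Mammalian cells build cholesterol from acetyl-CoA. The mevalonate pathway makes isoprenoid units, which are joined to squalene, cyclised to lanosterol and trimmed to cholesterol by a series of sterol enzymes. The transcription factors SREBP-1 and SREBP-2, encoded by Srebf1 and Srebf2, switch on these genes and those of fatty acid synthesis. When sterols are scarce, the escort protein SCAP carries SREBPs to the Golgi for cleavage, and when sterols are plentiful the INSIG proteins hold SCAP in the endoplasmic reticulum. Excess sterol is exported by the transporters ABCA1 and ABCG1, whose genes are targets of the sterol-sensing LXR receptors.

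Promoter sequences are shown for 6 genes on which the results turn. Hmgcs1, Msmo1 (named Sc4mol on the array), Hsd17b7, Sc5d and Insig1 are 5 of the 6 members that differed from 0 h at every later time, and Tm7sf2 is the sterol synthesis enzyme with the largest decrease. Each window runs from 250 bases before to 50 bases after the annotated start, 5′ to 3′ on the strand of the gene, from RefSeq on build GRCm38.p6. The windows are chr13:119690101-119690400 (plus strand) for Hmgcs1, chr8:64733529-64733828 (minus) for Msmo1, chr19:6067801-6068100 (minus) for Tm7sf2, chr1:169969156-169969455 (minus) for Hsd17b7, chr9:42264251-42264550 (minus) for Sc5d and chr5:28071162-28071461 (plus) for Insig1. Capitals mark matches, on either strand, to any of 3 motifs: TCACNCCAC, the sterol regulatory element that SREBPs bind; CCAAT, the box that NF-Y binds; and CACGTG, an E-box.
Hmgcs1: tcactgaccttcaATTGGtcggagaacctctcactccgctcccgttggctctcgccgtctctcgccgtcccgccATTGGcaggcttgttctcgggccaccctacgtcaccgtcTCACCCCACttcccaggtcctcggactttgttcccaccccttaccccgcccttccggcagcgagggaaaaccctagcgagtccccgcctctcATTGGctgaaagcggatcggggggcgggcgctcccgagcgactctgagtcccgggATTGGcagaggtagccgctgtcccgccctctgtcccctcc
Msmo1: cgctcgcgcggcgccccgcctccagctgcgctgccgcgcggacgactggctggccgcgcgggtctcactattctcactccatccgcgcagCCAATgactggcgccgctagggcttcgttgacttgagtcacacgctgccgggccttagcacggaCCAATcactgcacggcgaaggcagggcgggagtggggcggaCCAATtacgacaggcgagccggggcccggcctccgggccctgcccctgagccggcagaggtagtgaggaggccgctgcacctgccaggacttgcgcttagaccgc
Tm7sf2: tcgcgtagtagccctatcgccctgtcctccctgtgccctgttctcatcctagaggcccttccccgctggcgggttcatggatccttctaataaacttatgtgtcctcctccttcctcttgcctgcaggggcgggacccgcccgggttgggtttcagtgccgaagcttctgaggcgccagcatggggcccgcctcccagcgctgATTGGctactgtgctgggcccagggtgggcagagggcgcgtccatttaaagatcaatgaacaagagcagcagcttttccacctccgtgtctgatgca
Hsd17b7: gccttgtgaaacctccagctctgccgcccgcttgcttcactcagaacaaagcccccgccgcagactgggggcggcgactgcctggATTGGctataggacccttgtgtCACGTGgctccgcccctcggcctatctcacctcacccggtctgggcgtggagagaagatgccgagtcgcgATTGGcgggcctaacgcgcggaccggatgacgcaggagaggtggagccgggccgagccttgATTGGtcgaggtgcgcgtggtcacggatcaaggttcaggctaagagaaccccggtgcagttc
Sc5d: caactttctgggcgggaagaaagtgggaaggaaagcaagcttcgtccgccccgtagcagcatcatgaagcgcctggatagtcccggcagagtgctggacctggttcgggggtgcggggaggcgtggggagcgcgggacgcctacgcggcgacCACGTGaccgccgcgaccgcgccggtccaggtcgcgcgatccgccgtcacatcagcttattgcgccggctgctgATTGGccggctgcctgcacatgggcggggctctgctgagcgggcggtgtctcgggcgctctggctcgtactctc
Insig1: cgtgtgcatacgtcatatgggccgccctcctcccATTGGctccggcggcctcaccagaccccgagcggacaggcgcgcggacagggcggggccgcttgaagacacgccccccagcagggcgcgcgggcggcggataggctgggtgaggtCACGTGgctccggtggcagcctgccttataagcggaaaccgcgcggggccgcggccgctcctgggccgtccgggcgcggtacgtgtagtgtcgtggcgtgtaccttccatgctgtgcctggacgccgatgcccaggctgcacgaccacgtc

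The sterol regulatory element motif was found in 1.24% of 32851 RefSeq windows of this length and, among the 26 members with a window, in 1, Hmgcs1, at 137 bases before the start. CCAAT was found in 37.4% of all windows and 64.7% of the 34 member windows, and 21 of the 26 members had it in at least 1 window. CACGTG was found in 7.15% of all windows and 20.6% of member windows, in 6 of 26 members. Hmgcs1 had 4 CCAAT matches and no E-box, Msmo1 and Hsd17b7 had 3 CCAAT matches each, and Hsd17b7, Sc5d and Insig1 each had 1 E-box. None of the 3 motifs contains another. Fdft1, Sqle, Fdps, Scd1, Scd2, Abcg1 and Stard4 had no window in the table used.

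Values below are the processed signal of each gene's brightest probe, scaled so that the 75th percentile of every array is 379.7. They compare times within a gene and not genes with one another. A gene is said to have risen or fallen where limma's adjusted p (Benjamini-Hochberg, over all 20808 genes tested) was below 0.05. Of the 33 members, 32 were tested and were well above background on all 8 arrays. Abcg1 was not tested because its probe was well above background on 1 array, at 0 h.

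Src itself gave 149 and 166 at 0 h, 4190 and 4280 at 6 h, 3730 and 3770 at 24 h, and 3090 and 3080 at 72 h. The Csk probe was well above background on 0 of 8 arrays. Per array 49.9% to 54.7% of spots were above background by this measure, and replicate arrays correlated across genes with r of 0.9963 to 0.9974. Of 8 fibroblast markers, 7 were well above background on all arrays and Thy1 on none. At 72 h 6 of these 7 (collagen, fibronectin, Pdgfrb and S100a4 genes) fell and Vim rose, and their summed signal was 283000 to 285000 at 72 h, against 331000 on both arrays at 0 h. In a whole-culture measurement fewer cells of a type and less RNA per cell cannot be told apart.

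In numbers, 6 members rose and 1 fell at 6 h, 9 rose and 4 fell at 24 h, and 10 rose and 10 fell at 72 h, each against 0 h. As shares of the 32 tested this was 18.8% higher at 6 h, where 10.4% of all genes tested were higher, and 3.12% lower, where 7.27% of all genes were lower. At 24 h 28.1% of members were higher and 12.5% lower, beside 21.4% and 20.1% of all genes. At 72 h 31.2% were higher and 31.2% lower, beside 27.5% and 24.6%. The median log2 difference of the members was 0.01, 0.14 and -0.07 at 6, 24 and 72 h, and that of all genes 0, -0.02 and 0. The count of rises at 6 h was 1 without 0 h replicate 1, without 0 h replicate 2 or without 6 h replicate 2, 3 without 6 h replicate 1, and 3 without either 72 h array, and the count of falls at 6 h was 0 without any one of the 8 arrays. Scaling to the array median instead shifted the median of all genes by 0.05, 0.15 and 0.18 at 6, 24 and 72 h, which gave 17 rises and 2 falls at 24 h and 6 falls at 72 h, and a members' median of 0.12 at 72 h. Under that scaling 76.9%, 74.7% and 75.1% of all calls were higher, against 58.9%, 51.5% and 52.8% here, and quantile normalization gave 47.0% at 6 h.

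**Figure D1:**
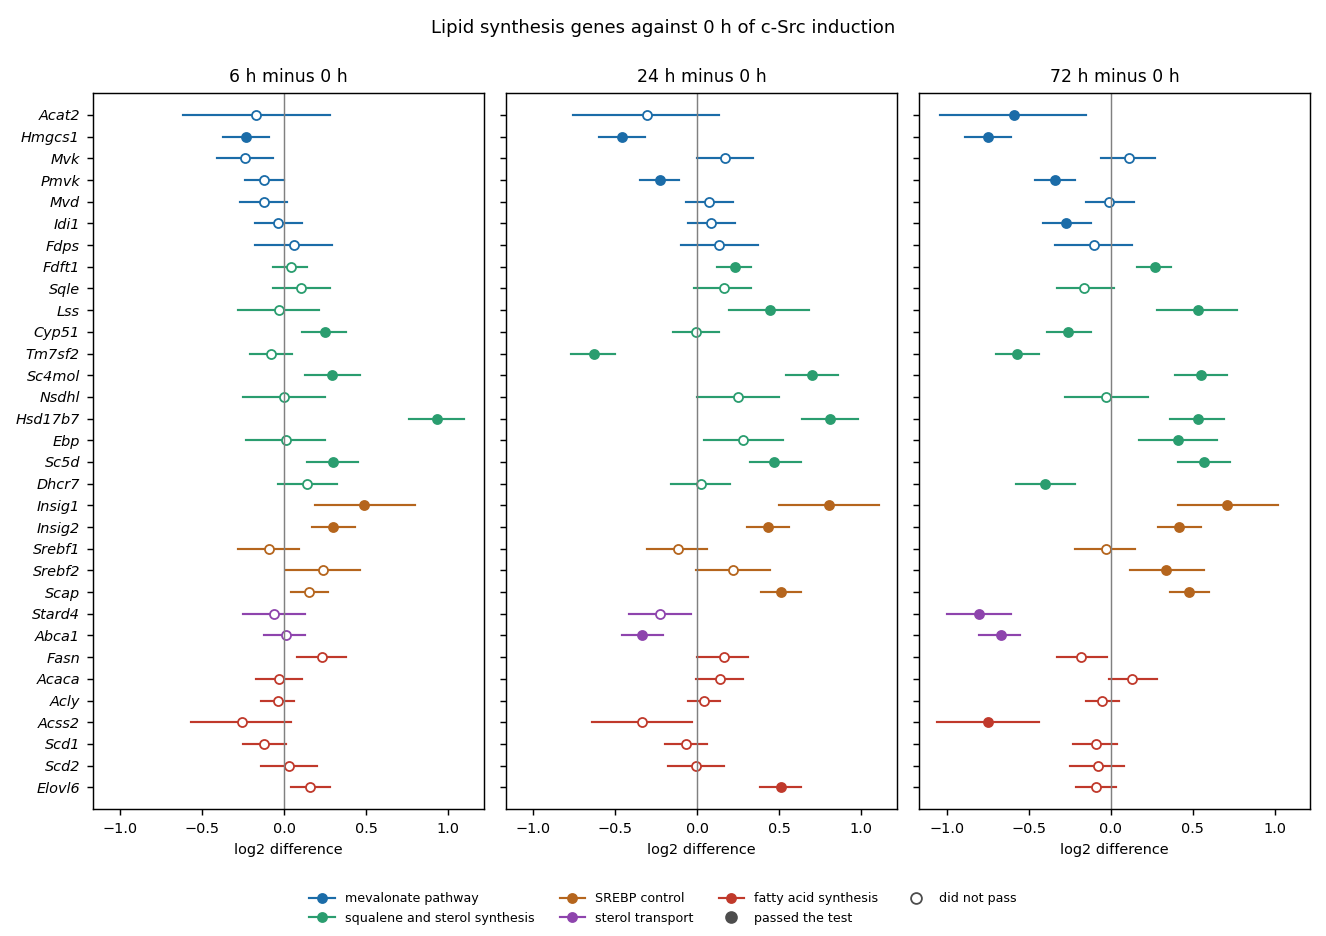
Log2 difference from 0 h (horizontal axis) of the 32 tested members at 6, 24 and 72 h, with 95% confidence intervals from limma as bars. Genes run down the page by role, filled points passed the test and open points did not. Mevalonate pathway genes that passed lie left of 0, SREBP control genes that passed lie right of 0, and sterol synthesis genes lie on both sides at 72 h.

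Over the 4 times together, 22 of 32 members differed (limma F test), and 55.6% of all genes did. 21 members passed in at least 1 comparison with 0 h, 6 in all 3 and 12 in none, the last including Abcg1, which was not tested. The same counts were not made for all genes. The 6 were Hmgcs1, lower each time, and Sc4mol, Hsd17b7, Sc5d, Insig1 and Insig2, higher each time. Without regard to error, and with Abcg1 included, the mean signal was highest at 0 h for 8 members, at 6 h for 6, at 24 h for 13 and at 72 h for 6.

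Mevalonate pathway genes fell or did not pass the test against 0 h. Of the 7, 0 rose at any time, and 1 was higher at an unadjusted p below 0.05, at 24 h. Falls numbered 1 at 6 h, 2 at 24 h and 4 at 72 h, with medians of -0.12, 0.07 and -0.27. As shares, 14.3%, 28.6% and 57.1% fell, beside 7.27%, 20.1% and 24.6% of all genes. Rises were 0% at each time, beside 10.4%, 21.4% and 27.5% of all genes. Hmgcs1, the synthase that makes HMG-CoA, gave 7340 and 7804 at 0 h, 6318 and 6599 at 6 h, 5370 and 5635 at 24 h, and 4429 and 4582 at 72 h. The 4 times do not overlap, and each step was down. Hmgcs1 was 1.17-fold lower at 6 h (log2 difference -0.23 ± 0.06 SE, adjusted p = 0.0437), 1.38-fold lower at 24 h (-0.46 ± 0.06, adjusted p = 0.00189) and 1.68-fold lower at 72 h (-0.75 ± 0.06, adjusted p = 0.000235). Its probe lies on a sequence that mm9 assigns to chromosome 13 without a position (13_random, 114793 to 114852, minus strand).

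Acat2, the cytosolic thiolase that starts the pathway (mm9 chromosome 17, 13136482 to 13136541), gave 124 and 132.2 at 0 h, 102.5 and 126.9 at 6 h, 95.12 and 111.6 at 24 h, and 72.6 and 99.02 at 72 h. The duplicates differ widely from 6 h on, but both 72 h arrays lie below both 0 h arrays. Acat2 fell by 0.59 on the log2 scale at 72 h (SE 0.18, adjusted p = 0.0369). Pmvk, phosphomevalonate kinase, fell at 24 h (-0.23 ± 0.05, adjusted p = 0.0134) and 72 h (-0.34 ± 0.05, adjusted p = 0.00247). Idi1, which interconverts the isoprenoid units, fell at 72 h (-0.27 ± 0.06, adjusted p = 0.0127). Mvk (mevalonate kinase), Mvd (mevalonate decarboxylase) and Fdps (farnesyl diphosphate synthase) did not pass against 0 h at any time, with differences between -0.24 and 0.17.

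Each call was recomputed under 20 alternatives, which change the background correction, scaling, filter, probe rule or fit or leave out 1 array. The 6 h call of Hmgcs1 was lost without any one of the 8 arrays and in 12 of 20 in all (adjusted p up to 0.191). The Acat2 call was lost in 10 of 20 (adjusted p up to 0.142), among them without 0 h replicate 1, 0 h replicate 2, 24 h replicate 1, 24 h replicate 2 or 72 h replicate 1 (-0.37 without the last), and normexp background correction gave -0.36. Pmvk lost its 24 h call in 5 of 20, among them without 0 h replicate 2 or 24 h replicate 1 and under median scaling (-0.08). The 72 h call of Pmvk was lost under median scaling (-0.16). Idi1 lost its call in 5 of 20, among them without 0 h replicate 2, 72 h replicate 1 or 72 h replicate 2 and under median scaling (-0.08). The falls of Hmgcs1 at 24 and 72 h passed in all 20. Some differences that did not pass here did so in part of the alternatives. Mvk passed as lower at 6 h in 5 of 20, and as higher at 24 h in 5 and at 72 h in 1. Idi1 and Fdps passed as higher at 24 h in 1 each. Pmvk passed as lower at 6 h in 2 and Acat2 as lower at 24 h in 1.

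The enzymes of squalene and sterol synthesis went in both directions. Of 11, 4 rose and 0 fell at 6 h, 5 rose and 1 fell at 24 h, and 6 rose and 3 fell at 72 h, with medians of 0.1, 0.25 and 0.27. As shares, 36.4%, 45.5% and 54.5% rose, beside 10.4%, 21.4% and 27.5% of all genes. Falls were 0%, 9.09% and 27.3%, beside 7.27%, 20.1% and 24.6%. No enzyme of the 11 fell at 6 h, and 0 did so at an unadjusted p below 0.05. The 3 enzymes with a rise at every time were Sc4mol, Hsd17b7 and Sc5d. The first 2 act in removing methyl groups from the sterol ring system. So do Cyp51, which fell at 72 h (-0.26 ± 0.05), and Nsdhl, which did not pass against 0 h.

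Hsd17b7, the ketosteroid reductase of this demethylation, gave 185 and 203.7 at 0 h, 381.7 and 359.7 at 6 h, 347.8 and 333.4 at 24 h, and 272.7 and 286.7 at 72 h. Every later array is above both 0 h arrays, and the 6 h arrays are the highest. Hsd17b7 (mm9 chromosome 1, 171880203 to 171880262) was 1.91-fold higher at 6 h (0.93 ± 0.07, adjusted p = 0.00143), the largest difference of any member at that time, 1.75-fold higher at 24 h (0.81 ± 0.07, adjusted p = 0.000574) and 1.44-fold higher at 72 h (0.53 ± 0.07, adjusted p = 0.00156). Its second probe gave 0.83, 0.85 and 0.40.

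Sc4mol, the methylsterol monooxygenase (mm9 chromosome 8, 67196982 to 67197041), gave 4132 and 4419 at 0 h, 5104 and 5373 at 6 h, 6691 and 7196 at 24 h, and 6080 and 6432 at 72 h. The arrays of the 4 times do not overlap, and the 24 h pair is the highest. Sc4mol was 1.23-fold higher at 6 h (0.29 ± 0.07, adjusted p = 0.0342), 1.62-fold higher at 24 h (0.70 ± 0.07, adjusted p = 0.000803) and 1.46-fold higher at 72 h (0.55 ± 0.07, adjusted p = 0.00119).

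Sc5d, the sterol desaturase near the end of the pathway (mm9 chromosome 9, 42062857 to 42062916), gave 1469 and 1501 at 0 h, 1867 and 1782 at 6 h, 1997 and 2131 at 24 h, and 2111 and 2299 at 72 h. All later arrays are above 0 h, while the 24 h and 72 h pairs overlap. The differences were 0.30 ± 0.06 (adjusted p = 0.0302), 0.47 ± 0.06 (adjusted p = 0.00263) and 0.57 ± 0.06 (adjusted p = 0.000921) at 6, 24 and 72 h.

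Lss, which cyclises oxidised squalene to lanosterol (mm9 chromosome 10, 76015992 to 76016051), gave 251.9 and 229.8 at 0 h, 227.5 and 243 at 6 h, 354.9 and 299.1 at 24 h, and 356.7 and 336.1 at 72 h. The 6 h arrays overlap those at 0 h, and the 24 h and 72 h arrays lie above both. Lss rose 1.35-fold at 24 h (0.44 ± 0.10, adjusted p = 0.0165) and 1.44-fold at 72 h (0.53 ± 0.10, adjusted p = 0.0067). Fdft1, squalene synthase, rose by 0.23 ± 0.04 at 24 h (adjusted p = 0.00876) and 0.27 ± 0.04 at 72 h (adjusted p = 0.0035). Ebp, the sterol isomerase, rose by 0.41 ± 0.10 at 72 h (adjusted p = 0.0162).

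Tm7sf2, a sterol reductase that acts after lanosterol demethylation (mm9 chromosome 19, 6062882 to 6062941), gave 537.9 and 571.6 at 0 h, 513.7 and 537.4 at 6 h, 351.9 and 363 at 24 h, and 379.3 and 367.6 at 72 h. The 6 h pair lies just below the 0 h pair, a difference that did not pass (-0.08 ± 0.05, adjusted p = 0.37), and the 24 h and 72 h pairs lie far below both. Tm7sf2 was 1.55-fold lower at 24 h (-0.63 ± 0.05, adjusted p = 0.000595) and 1.48-fold lower at 72 h (-0.57 ± 0.05, adjusted p = 0.000498), and its second probe gave -0.87 and -0.60. Cyp51, the lanosterol demethylase, rose at 6 h (0.25 ± 0.05, adjusted p = 0.0342), was at -0.01 at 24 h and fell at 72 h (-0.26 ± 0.05, adjusted p = 0.0108). Dhcr7, the reductase of the last step to cholesterol, fell at 72 h (-0.40 ± 0.07, adjusted p = 0.00563). Sqle, squalene epoxidase, and Nsdhl, the decarboxylating dehydrogenase of demethylation, did not pass against 0 h, with differences between -0.16 and 0.25. The second Nsdhl probe gave -0.47 at 72 h, where the brightest gave -0.03.

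At 6 h the calls of this group other than that of Hsd17b7 were lost in part of the 20 alternatives: Cyp51 and Sc4mol in 9 each (adjusted p up to 0.163 and 0.158) and Sc5d in 6 (up to 0.14). All 3 were lost without either 0 h array or either 6 h array, and Cyp51 and Sc4mol also without either 72 h array. Lss lost its 24 h call in 4 of 20, among them without 0 h replicate 2 or 24 h replicate 1. Ebp lost its 72 h call in 3, among them without 0 h replicate 1 or 72 h replicate 2. Cyp51 lost its 72 h call in 4, among them without 0 h replicate 2 or 72 h replicate 2. Fdft1 at 24 h passed without any one array. It did not pass with only the 0 h and 24 h arrays fitted (adjusted p = 0.056) or with dim probes kept (adjusted p = 0.0607). Median scaling gave -0.08 for Cyp51 at 72 h, which no longer passed, -0.22 for Dhcr7, and 0.37 and 0.45 for Fdft1 at 24 and 72 h, and normexp gave -0.17 for Cyp51 at 72 h.

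**Figure D2:**
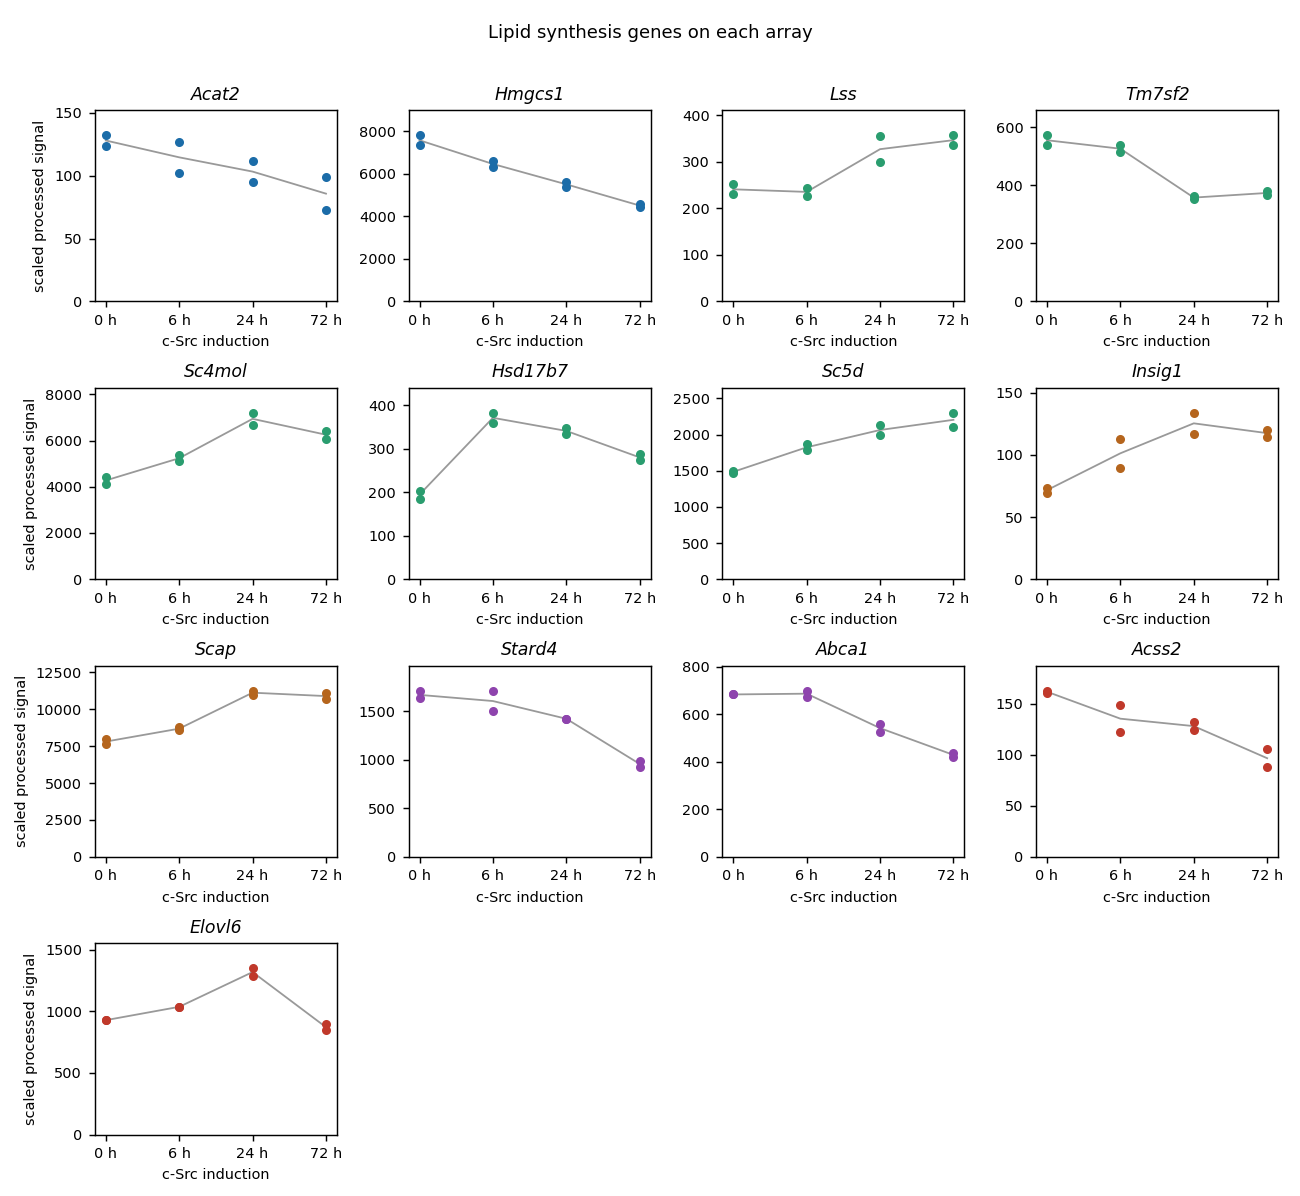
Scaled processed signal (vertical axis, linear from 0) of 13 members on each of the 8 arrays at 0, 6, 24 and 72 h, with times equally spaced. Points are arrays and lines join the means of the times. Hmgcs1 is highest at 0 h (7340 and 7804) and lower at each later time, Hsd17b7 is highest at 6 h, and Sc4mol, Insig1, Scap and Elovl6 have their highest mean at 24 h.

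The SREBP control genes rose or did not pass, and 0 of 5 fell at any time, also at an unadjusted p below 0.05. Rises numbered 2 at 6 h, 3 at 24 h and 4 at 72 h, with medians of 0.24, 0.43 and 0.42. Insig1, which retains SCAP and is itself an SREBP target (mm9 chromosome 5, 28404246 to 28404305), gave 73.56 and 69.69 at 0 h, 89.78 and 112.8 at 6 h, 117.1 and 133.7 at 24 h, and 120.4 and 114.6 at 72 h. All later arrays are above both 0 h arrays. Insig1 rose 1.41-fold at 6 h (0.49 ± 0.12, adjusted p = 0.0469), 1.75-fold at 24 h (0.80 ± 0.12, adjusted p = 0.00413) and 1.64-fold at 72 h (0.71 ± 0.12, adjusted p = 0.00477). Insig2, the second retention protein, rose by 0.30 ± 0.05 (adjusted p = 0.0176), 0.43 ± 0.05 (adjusted p = 0.00202) and 0.42 ± 0.05 (adjusted p = 0.0014) at 6, 24 and 72 h, and its second probe gave 0.35, 0.49 and 0.36.

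Scap, the SREBP escort (mm9 chromosome 9, 110287280 to 110287339), gave 7650 and 7973 at 0 h, 8564 and 8812 at 6 h, 11260 and 10990 at 24 h, and 10710 and 11080 at 72 h. The 24 h and 72 h pairs overlap each other and lie above the earlier ones. Scap did not pass at 6 h (0.15 ± 0.05, adjusted p = 0.08) and rose 1.42-fold at 24 h (0.51 ± 0.05, adjusted p = 0.000779) and 1.39-fold at 72 h (0.48 ± 0.05, adjusted p = 0.00059). Of the SREBP genes themselves, Srebf2 rose at 72 h (0.34 ± 0.09, adjusted p = 0.0226). Srebf1 gave 255.9 and 247.3 at 0 h and between 224.7 and 260 afterwards, and did not pass at any time, with differences of -0.09, -0.12 and -0.03.

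The 6 h call of Insig1 was lost in 12 of 20 alternatives (adjusted p up to 0.161), among them without any array other than 6 h replicate 1, and that of Insig2 in 5, among them without 0 h replicate 1 (0.0683), 0 h replicate 2 (0.0826) or 6 h replicate 2 (0.0954). Insig1 was 0.33 without 6 h replicate 2, and normexp gave 0.30, 0.50 and 0.45 for it at 6, 24 and 72 h. Srebf2 lost its call in 5 of 20, among them without either 0 h or either 72 h array (0.0735, 0.0849, 0.0808 and 0.0887), and was 0.53 under median scaling.

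Of the sterol transport genes, both tested fell at 72 h, where 24.6% of all genes were lower. Abca1, which exports cholesterol (mm9 chromosome 4, 53043944 to 53044003), gave 684.3 and 683.8 at 0 h, 699.8 and 674.7 at 6 h, 557.6 and 526.8 at 24 h, and 420.3 and 438.4 at 72 h. The 6 h pair spans the 0 h pair, and the 24 h and 72 h pairs are each below the one before. Abca1 was 1.26-fold lower at 24 h (-0.34 ± 0.05, adjusted p = 0.0041) and 1.59-fold lower at 72 h (-0.67 ± 0.05, adjusted p = 0.000247). The 24 h call was lost under median scaling (-0.19, adjusted p = 0.166).

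Stard4, which carries cholesterol through the cytosol (mm9 chromosome 18, 33361181 to 33361240), gave 1632 and 1704 at 0 h, 1498 and 1711 at 6 h, 1422 and 1422 at 24 h, and 921.4 and 991.6 at 72 h. The 6 h pair overlaps the 0 h pair, the 24 h pair lies below both, and the 72 h pair is the lowest. Stard4 was 1.74-fold lower at 72 h (-0.80 ± 0.08, adjusted p = 0.000549), the largest decrease of any member at that time, and did not pass at 24 h (-0.23 ± 0.08, adjusted p = 0.061). A second Stard4 probe, also well above background on all 8 arrays, gave 0.10, 0.22 and 0.04 at 6, 24 and 72 h, and the mean over both probes was -0.38 at 72 h. The 2 probes thus disagree, and the decrease holds for the brighter one. Abcg1 gave 12.57 and 6.105 at 0 h and between 4.654 and 10.52 afterwards, and is given no fold.

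Fatty acid synthesis genes mostly did not pass against 0 h. Of 7, 0 rose or fell at 6 h, 1 rose at 24 h and 1 fell at 72 h, with medians of -0.03, 0.04 and -0.09. As shares, 0%, 14.3% and 0% rose, beside 10.4%, 21.4% and 27.5% of all genes. Falls were 0%, 0% and 14.3%, beside 7.27%, 20.1% and 24.6%. At an unadjusted p below 0.05, 2 were higher and 0 lower at 6 h. Elovl6, which elongates palmitate (mm9 chromosome 3, 129341248 to 129341307), gave 930.4 and 925.2 at 0 h, 1036 and 1036 at 6 h, 1348 and 1288 at 24 h, and 845.4 and 896.4 at 72 h. The 24 h pair is the highest and the 72 h pair the lowest. Elovl6 rose 1.42-fold at 24 h (0.51 ± 0.05, adjusted p = 0.000911) and did not pass at 6 h (0.16 ± 0.05, adjusted p = 0.0819) or 72 h (-0.09 ± 0.05, adjusted p = 0.173).

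Acss2, which makes acetyl-CoA from acetate (mm9 chromosome 2, 155388416 to 155388475), gave 163 and 161 at 0 h, 122.3 and 148.8 at 6 h, 132.1 and 124.4 at 24 h, and 87.93 and 105.6 at 72 h. Every later array is below the 0 h pair. Acss2 was 1.68-fold lower at 72 h (-0.75 ± 0.12, adjusted p = 0.00407). Normexp gave -0.47, and the second probe -0.51. The main chain-building enzymes Fasn (fatty acid synthase), Acaca (acetyl-CoA carboxylase), Acly (ATP citrate lyase) and the desaturases Scd1 and Scd2 did not pass at any time against 0 h, with differences between -0.18 and 0.23. Fasn came closest, at 0.23 ± 0.06 at 6 h (adjusted p = 0.0556) and -0.18 ± 0.06 at 72 h (adjusted p = 0.0575). For Scd2, the 95% interval at 72 h ran from -0.25 to 0.08, and for the brightest Acly probe from -0.15 to 0.05. The second Acly probe, well above background on all 8 arrays, gave 0.09, 0.02 and -0.28 at 6, 24 and 72 h. Its 72 h value lies outside the interval of the brightest probe.

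The steps between later times share the 24 h and 6 h arrays with the comparisons above, so they are not separate evidence. Between 6 h and 24 h, 6 members rose and 4 fell, or 18.8% and 12.5% of those tested, beside 12.6% and 13.7% of all genes. Mvk (0.41 ± 0.07, adjusted p = 0.0103), Sc4mol (0.41 ± 0.07, adjusted p = 0.00942), Lss (0.47 ± 0.10, adjusted p = 0.0214), Fdft1 (0.19 ± 0.04, adjusted p = 0.027), Scap (0.36 ± 0.05, adjusted p = 0.00527) and Elovl6 (0.35 ± 0.05, adjusted p = 0.00664) rose. Mvk gave 3808 and 3951 at 24 h, against 2796 and 3041 at 6 h. Tm7sf2 (-0.56 ± 0.05, adjusted p = 0.00217), Abca1 (-0.34 ± 0.05, adjusted p = 0.00752), Cyp51 (-0.26 ± 0.05, adjusted p = 0.023) and Hmgcs1 (-0.23 ± 0.06, adjusted p = 0.0323) fell. Without 6 h replicate 1 there were 2 rises, and without 6 h replicate 1, 6 h replicate 2 or 24 h replicate 2 there were 2 falls. Calls lost in part of the 20 alternatives were those of Fdft1 and Hmgcs1 (9 each), Cyp51 (6), Lss (5), Mvk (3), Sc4mol (2) and Abca1 (2), while Scap, Elovl6 and Tm7sf2 passed in all.

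Between 24 h and 72 h no member rose, also at an unadjusted p below 0.05, and 10 fell, 31.2% of those tested, beside 10.8% of all genes higher and 10.9% lower. The median of the members was -0.10 and that of all genes 0.01. The genes that fell came from 4 of the 5 roles: Hmgcs1 (-0.29 ± 0.06) and Idi1 (-0.35 ± 0.06) of the mevalonate pathway, Sqle (-0.31 ± 0.07), Cyp51 (-0.25 ± 0.05), Hsd17b7 (-0.28 ± 0.07) and Dhcr7 (-0.42 ± 0.07) of sterol synthesis, Stard4 (-0.57 ± 0.08) and Abca1 (-0.34 ± 0.05) of transport, and Fasn (-0.33 ± 0.06) and Elovl6 (-0.60 ± 0.05) of fatty acid synthesis. Their adjusted p lay between 0.00307 for Elovl6 and 0.0358 for Hsd17b7. Fasn gave 158.9 and 173.1 at 72 h, against 211.1 and 206.1 at 24 h. Sqle gave 4192 and 4232 at 72 h, against 4979 and 5511 at 24 h. In both genes the pairs do not overlap. Of the 5 SREBP control genes 0 passed, with differences between -0.09 and 0.13.

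The count of these falls was 5 without 24 h replicate 1, 6 without 24 h replicate 2, 1 without 72 h replicate 1 (Elovl6 in that setting) and 5 without 72 h replicate 2. The Stard4 call was lost only without 72 h replicate 1 (adjusted p = 0.0557), and that of Elovl6 passed in all 20 alternatives. Median scaling gave 5 falls. The second Stard4 probe gave -0.19 for this step, against -0.57 for the brightest.

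**Figure D3:**
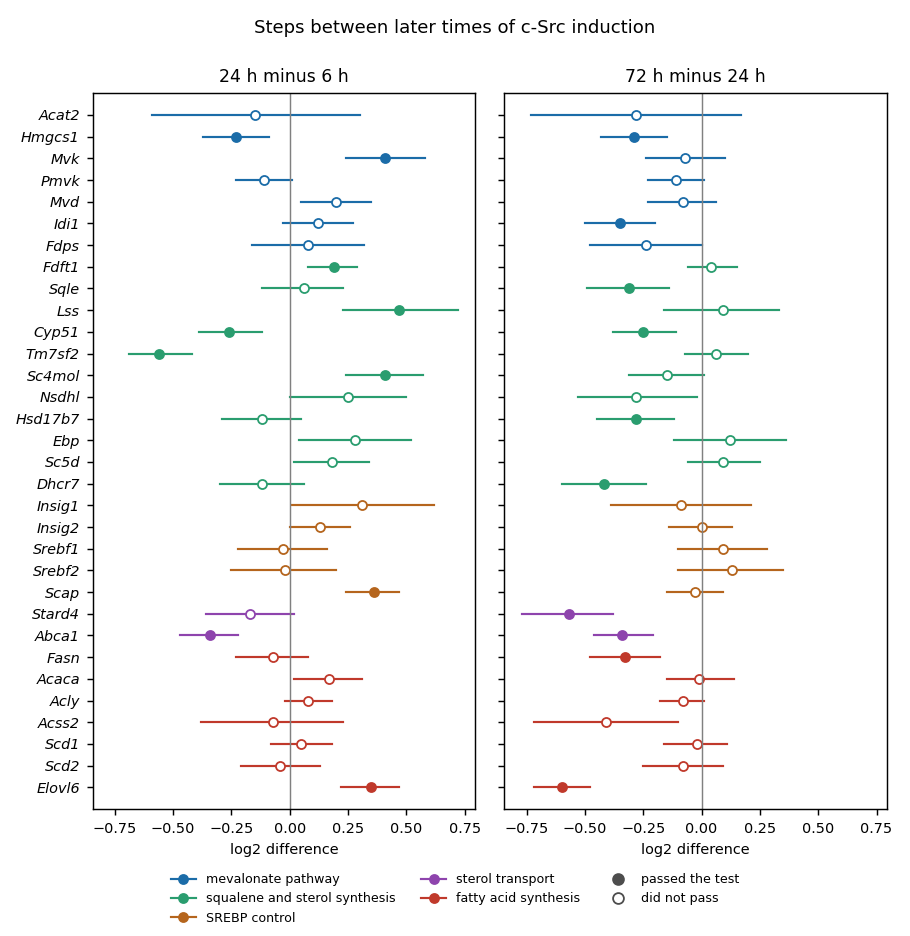
Log2 difference (horizontal axis) of the 32 tested members for 24 h minus 6 h and 72 h minus 24 h, with 95% confidence intervals from limma as bars. Filled points passed the test and open points did not. In the later step every filled point lies left of 0, with Elovl6 at -0.60 and Stard4 at -0.57 farthest out.

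Other probes were on the array for part of the members. Of 14 such probes 11, from 11 genes, were kept by the filter on dim probes. Their difference had the sign of the brightest probe in 8 of 11 genes at 6 h, 9 at 24 h and 10 at 72 h. Of the members that passed with their brightest probe, the other probe had the same sign in 2 of 2, 4 of 4 and 6 of 7, the exception being Stard4.

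Genes of adjoining pathways that are not members were read from 3 lists. Of 10 genes of the isoprenoid branch, 1 rose at 6 h, 2 rose at 24 h and 3 rose at 72 h, with medians of -0.09, 0.08 and 0.09. Pdss1, which makes the ubiquinone side chain, rose at 24 h (0.50 ± 0.05, adjusted p = 0.000803), and at 72 h Icmt, the methyltransferase of prenylated proteins (0.37 ± 0.06, adjusted p = 0.0036), and Coq2 of ubiquinone synthesis (0.23 ± 0.05, adjusted p = 0.0106) rose. The Icmt call was lost in the mean over its probes (0.09). That of Coq2 at 72 h was lost in 3 of 20 alternatives, among them without 0 h replicate 1 or 72 h replicate 2.

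Of 15 genes of sterol sensing, storage and traffic, 3 rose at 6 h, 3 rose and 2 fell at 24 h, and 7 rose and 1 fell at 72 h, with medians of 0, 0.15 and 0.13. As shares, 20.0%, 20.0% and 46.7% rose, beside 10.4%, 21.4% and 27.5% of all genes. Falls were 0%, 13.3% and 6.67%, beside 7.27%, 20.1% and 24.6%. Soat1, which esterifies cholesterol for storage, gave 316 and 341 at 6 h, against 176 and 192 at 0 h (0.84 ± 0.09, adjusted p = 0.00442). Npc1, the lysosomal cholesterol transporter, gave 199 and 174 at 72 h, against 92.3 and 112 at 0 h (0.87 ± 0.12, adjusted p = 0.00192). Neither gene's pairs overlap. Tmem97, a sterol-responsive membrane protein gene, rose at 24 h (0.56 ± 0.04, adjusted p = 0.000434). Lpcat3, a phospholipid acyltransferase, fell at 72 h (-0.76 ± 0.06, adjusted p = 0.000324). Mylip of the same list did not pass, with differences of 0.21, 0.16 and 0.08 at 6, 24 and 72 h. Of the genes that encode the LXRs, Nr1h3 was lower by a log2 difference of -0.53 ± 0.16 at 24 h relative to 0 h (limma adjusted p = 0.0417), a call that was lost under 11 of 20 alternatives, with a highest adjusted p of 0.213 and a difference of -0.35 without 24 h replicate 2. Its differences of -0.56 ± 0.16 at 6 h and -0.47 ± 0.16 at 72 h did not pass (limma adjusted p = 0.0643 and 0.0503), though 4 of the alternatives at 6 h and 8 at 72 h did. Nr1h2 did not pass at any of the 3 times.

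Of 15 genes of fatty acid elongation, desaturation and activation, 2 rose and 1 fell at 6 h, 5 rose and 4 fell at 24 h, and 6 rose and 5 fell at 72 h, with medians of 0, 0.06 and 0.02. As shares, 13.3%, 33.3% and 40.0% rose, beside 10.4%, 21.4% and 27.5% of all genes. Falls were 6.67%, 26.7% and 33.3%, beside 7.27%, 20.1% and 24.6%. Fads2, the desaturase of polyunsaturated fatty acid synthesis, gave 1550 and 1410 at 0 h, 1200 and 1220 at 6 h, 800 and 839 at 24 h, and 513 and 556 at 72 h. Each pair lies below the one before, and Fads2 was 2.77-fold lower at 72 h (-1.47 ± 0.07, adjusted p = 6.61e-05). At 72 h Elovl7 (0.96 ± 0.07, adjusted p = 0.000262) and Hsd17b12 (0.95 ± 0.18, adjusted p = 0.00721), of fatty acid elongation, and the acyl-CoA synthetase gene Acsl5 (0.74 ± 0.07, adjusted p = 0.000517) rose.

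Markers of other cell types that handle much lipid were also read. Of 8 adipocyte markers, Fabp4, Pparg and Retn were well above background on all 8 arrays, and Adipoq, Plin1, Cidec and Lep on none. The summed signal of the list was 353 to 357 at 0 h, 365 to 368 at 6 h, 677 to 855 at 24 h and 770 to 783 at 72 h. Among its members, Fabp4 rose at 24 h and 72 h, with log2 differences from 0 h of 1.85 ± 0.13 and 1.91 ± 0.13 (limma adjusted p = 0.000354 and 0.000184), Pparg fell at 72 h (-0.45 ± 0.06, limma adjusted p = 0.00165), and Retn did not pass at any of the 3 times. Of 8 macrophage markers, Csf1r and Cd14 were well above background on all 8 arrays and Cd68 on 5, while Ptprc, Emr1, Lyz2, Laptm5 and Tyrobp were so on none. The sum of that list was 524 to 577 at 0 h, 874 to 922 at 6 h, 873 to 891 at 24 h and 717 to 755 at 72 h. Csf1r rose at 6, 24 and 72 h (0.88 ± 0.08, 0.81 ± 0.08 and 0.44 ± 0.08, limma adjusted p = 0.00256, 0.000828 and 0.00533). Cd14 rose at 24 h (0.30 ± 0.09, limma adjusted p = 0.0421) and did not pass at 6 or 72 h. Cd68, not well above background at 0 h, gave 6.09 and 5.09 there and 37.9 and 40.4 at 72 h. The part of the markers that did move in the results above was not tested.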

How the data were processed

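Total RNA was labelled with Cy3 and hybridised to 1-colour Agilent arrays, per the labels' protocols, with 8 arrays, 2 for each of 4 times. Per the file headers, the processed signal is an intensity after background subtraction and detrending by Feature Extraction 10.5.1.1 on build mm9, whereas the submitters' processing notes name version 10.7.3.1. Values in the deposited table differed from this intensity by at most 0.497%.

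The log2 of the processed signal minus the array's 75th percentile over 59305 spots that are not controls was averaged per probe without outlier spots. Those percentiles were 370.3 to 393, and 0 spots were saturated. Probes well above background on both arrays of at least 1 time were kept (28610 of 55681), and the brightest per gene name was tested (20808 of 36161). limma 3.58.1 in R 4.3.3 fitted 4 means to 8 arrays (4 residual degrees of freedom, prior 1.7). The median SE of a difference was 0.075, and the number of arrays limits the precision. The code of the fit was checked on simulated data with independent noise, which is not a test of the member calls. Motifs were counted with Python 3.11.15 and pandas 2.3.3, and figures drawn with matplotlib 3.10.9.

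The members and lists were chosen with earlier results of these data known. All members are named. Those that passed against 0 h with a log2 difference of at least 0.5 in size and the 3 largest in each of the 3 comparisons with 0 h, have their value on every array. From each list of other genes the 4 largest that passed are named, except 1 gene that is not reported here, while Nr1h2, Nr1h3 and single markers were named after their values were seen. Accessions matched RefSeq for all 33 members. Alternatives were background correction, normalization, filters, probes, outlier spots, the deposited table, the prior, the arrays fitted, a replicate block and leaving out each array; for Src and the genes that are not members they were added after seeing the data. At every time replicate 1 was in slide row 1 and replicate 2 in slide row 2. Replicate numbers were not taken as pairs, since deviations of same-numbered arrays correlated between 0.056 and 0.169, all positive but not all above 0.1. The replicate block counted below allows for a difference between the rows.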

Additional observations from a re-analysis of the deposited data

How the results depend on the processing

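Of 40 member calls against 0 h, 24 passed in each of 20 alternatives, 16 were lost in at least 1, and 0 reversed. Rises at 6 h (6 members) numbered 1 with no filter on dim probes and 1 with only the 2 times fitted, and 1 to 5 leaving out each array. Falls at 6 h (1) numbered 3 with normexp, 3 with quantile normalization, 0 with median scaling, 0 with no filter on dim probes, 0 with all probes tested, 3 with the mean over probes, 2 with a trended robust prior, 0 with only the 2 times fitted and 0 leaving out any array. At 24 h the rises (9) numbered 17 with median scaling and 14 with the trended prior, and 8 to 10 leaving out each array, and the falls (4) 2 with median scaling and 3 to 5. At 72 h the falls (10) numbered 6 with median scaling and 7 to 10 leaving out each array, and the rises 8 to 10. Between 6 h and 24 h the rises (6) numbered 2 with no filter, 10 with the trended prior and 2 to 6 leaving out each array, and the falls (4) 1 with median scaling, 1 with no filter, 2 with only the 2 times and 2 to 4. Between 24 h and 72 h the falls (10) numbered 5 with median scaling, 2 with no filter, 2 with only the 2 times and 1 to 9 leaving out each array, and the rises 0 throughout. Testing more genes or fewer arrays is part of the no-filter, all-probes, 2-time and left-out-array settings; for the others the cause was not tested. The replicate block gave 6 rises and 2 falls at 6 h, 11 and 6 at 24 h, and 10 and 11 at 72 h, and a pairing of the arrays is not given by the labels. With 2 arrays per time and 4 residual degrees of freedom, small differences may go undetected, and a gene that did not pass is not shown to be unchanged.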
